A study of Mus musculus with 8 samples.

Results

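Clustered histone genes encode the linker histone H1 and the core histones H2A, H2B, H3 and H4, and most of them lie together in arrays along the chromosomes. They were chosen by name, as the mouse genes whose older symbols start with Hist1h, Hist2h, Hist3h or Hist4h and whose current symbols mostly run through the H1f, H2ac, H2bc, H3c and H4c series, and *H2ax* and the genes of histone H3.3 were left out. RefSeq names 70 such genes, and 67 of them were among the 21058 genes quantified. These 67 members comprised 6 H1, 17 H2A, 19 H2B, 12 H3 and 13 H4 genes, of which 54 lie on chromosome 13, 9 on chromosome 3, 3 on chromosome 11 and 1 on chromosome 6. *H2ac14*, *H2ac19* and *H2ac24* were not among the genes quantified, and they enter only the descriptions of sequence and gene order below. The rule used names and no measured value.

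Transcript abundance was measured by RNA-seq in pachytene spermatocytes of 4 *Arid1a* WT and 4 *Arid1a* cKO samples, to ask how ARID1A, a putative DNA-binding subunit of the BAF chromatin remodelling complex, influences transcription in meiosis. *Arid1a* cKO males were *Arid1a* fl/fl with 1 copy of the *Stra8-Cre* transgene (*Stra8-Cre* Tg/0), in which the Stra8 promoter drives Cre in spermatogonia before meiosis. *Arid1a* WT males carried floxed *Arid1a* (fl/fl or fl/+) without Cre. The floxed *Arid1a* mice were on a CD1 background, and the study does not name the background of the *Stra8-Cre* mice. Spermatocytes were purified on Sta-Put gradients, which separate testis cells by their sedimentation, from pooled adult testes, and fractions were judged under the microscope. The study describes Cre activity as inefficient, from RT-PCR and immunofluorescence, so that the *Arid1a* cKO fractions also hold spermatocytes that kept ARID1A.

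Most clustered histone genes are transcribed in S phase, when new DNA is packed into nucleosomes. Their messengers usually have no intron and no poly(A) tail, and end instead in a short stem-loop that the stem-loop binding protein SLBP holds. Spermatocytes also use testis-specific members, among them the linker histone H1t (*H1f6*), TH2A (*H2ac1*) and TH2B (*H2bc1*), which accompany the repackaging of chromatin through meiosis and spermatid development. The libraries were prepared with an mRNA kit of the kind that captures poly(A) tails, so the values below describe histone transcripts recovered that way and not the whole pool of histone RNA.

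The deposited estimated counts summed to between 15850961 and 22044507 per library. *Arid1a* itself had 105, 128, 121 and 98.8 CPM (counts divided by the TMM-adjusted library size) in the *Arid1a* WT libraries and 76.4, 81, 82.9 and 78.3 CPM in the *Arid1a* cKO libraries, and so fell by 0.51 on the log2 scale (adjusted p = 2.31e-05, from the quasi-likelihood test of edgeR with Benjamini-Hochberg adjustment, as are all adjusted p-values below). Of 14 pachytene markers, all were measured, 5 rose and 9 fell, and their summed level was 10354 to 11983 CPM in *Arid1a* WT and 8391 to 8965 CPM in *Arid1a* cKO libraries. *Spag6* rose by 2.85 log2 units, and *Piwil1*, a piRNA pathway gene of pachytene cells, fell from 1593, 1642, 1615 and 1538 CPM to 106, 106, 109.8 and 113 CPM. All 17 spermatid markers rose, *Spaca7* and *Akap4* by 2.38 and 2.38, with a median log2 fold change of 2.16 and a summed level of 4137 to 4669 CPM in *Arid1a* WT against 15033 to 15586 CPM in *Arid1a* cKO libraries. Of 17 somatic and macrophage markers, 10 fell, 6 rose and 1 did not pass, with sums of 161 to 184 CPM and 65.9 to 67.5 CPM, and the Leydig cell genes *Insl3* and *Cyp17a1* fell, at log2 fold changes of -3.65 and -3.41. Of 14 spermatogonial markers, 11 rose and 1 fell, with sums of 906 to 1086 CPM and 1003 to 1038 CPM, and *Sohlh2* and *Id4*, both regulators of spermatogonial differentiation or self-renewal, were at 1.16 and -2.65. No marker was at 0 in all libraries. Marker levels moved with genotype, and their part in the results on histone genes was not tested. The study reports that most misexpressed sex-linked genes rose in *Arid1a* cKO, and the marker lists were not split by chromosome. In bulk RNA, fewer cells of a type and less RNA per cell cannot be told apart. The labels call the libraries biological replicates, but no source used here says whether each came from a separate purification, so the p-values and SDs measure only the spread between these samples, which may be partly technical.

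The stem-loop after the coding sequence is what sets these messengers apart from others, and it was found in the transcript models of 46 of the 70 genes, against 0.159% of all 55450 genes of the GENCODE M21 annotation. It was read from GENCODE transcripts of the GRCm38 build, on the strand of the gene, with the loop of 4 bases in capitals. All 46 copies lay past the end of the coding sequence, in the 3′ untranslated region. Of these genes, 26 shared the first sequence below, and H4 genes differed from all other classes in the stem. The sequences shown are those of the members with the largest counts that have one, together with *H1f6* and *H2ac20*, whose loops differ.
H2ac18, H2bc22, H2ac23, H2aw, H3c14, H1f2 and 20 others: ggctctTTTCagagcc
H4f16 and 6 other H4 genes: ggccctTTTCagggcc
H4c1: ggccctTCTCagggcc
H1f6 and 5 others: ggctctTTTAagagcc
H2ac20: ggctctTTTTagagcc
The stem-loop of *H2ac18* is on chromosome 3, plus strand, at chr3:96246032-96246047, and that of *H4c1* on chromosome 13, minus strand, at chr13:23760800-23760815. Among members with the largest counts, *H2bc21* and *H2af-ps2* had no copy in their models. *H2bc22* had 2 models, of 469 and 621 bases, 1 of them spliced, and only 1 held a copy. Which of these models its reads came from was not tested.

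Many H2A and H2B genes stand head to head and share the stretch of DNA between their starts. Among the 70 genes there were 15 head-to-head pairs, with gaps of 163 to 607 bases, and in 13 of them both genes were quantified. The gaps are shown for the 3 pairs in which both genes fell in *Arid1a* cKO and for the pair that holds *H2bc22*, the H2B gene with the largest counts, and are written 5′ to 3′ on the plus strand. Capitals mark the CCAAT box (CCAAT or, on the other strand, ATTGG), the TATA box (TATAAA or TTTATA) and the octamer of H2B promoters (ATTTGCAT or ATGCAAAT), which have no overlapping copies in the sequences shown. The sequences are from RefSeq on GRCm38.p6.
H2ac20 and H2bc21, chr3:96220881-96221071: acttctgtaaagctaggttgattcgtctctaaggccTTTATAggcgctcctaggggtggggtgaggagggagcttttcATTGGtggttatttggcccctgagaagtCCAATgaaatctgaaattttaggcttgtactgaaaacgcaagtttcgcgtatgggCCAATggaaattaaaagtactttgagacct
H2bu1-ps and H2aw, chr11:58954513-58954684: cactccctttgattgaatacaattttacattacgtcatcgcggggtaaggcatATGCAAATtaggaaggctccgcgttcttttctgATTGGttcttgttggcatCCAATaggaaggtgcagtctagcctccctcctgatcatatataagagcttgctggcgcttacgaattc
H2ac6 and H2bc4, chr13:23683960-23684198: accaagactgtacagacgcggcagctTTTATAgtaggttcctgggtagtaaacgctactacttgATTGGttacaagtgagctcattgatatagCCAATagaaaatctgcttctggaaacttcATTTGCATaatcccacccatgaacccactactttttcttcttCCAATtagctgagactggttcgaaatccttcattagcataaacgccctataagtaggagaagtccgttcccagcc
H2ac22 and H2bc22, chr13:21787249-21787482: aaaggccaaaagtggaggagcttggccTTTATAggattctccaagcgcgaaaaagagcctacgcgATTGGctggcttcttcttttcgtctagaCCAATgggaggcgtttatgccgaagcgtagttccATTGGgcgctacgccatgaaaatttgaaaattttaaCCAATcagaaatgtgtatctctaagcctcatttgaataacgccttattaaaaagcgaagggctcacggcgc
The first gap held 1 TATA box and 3 CCAAT boxes, the second 2 CCAAT boxes and 1 octamer, the third 1 TATA box, 3 CCAAT boxes and 1 octamer, and the fourth 1 TATA box and 4 CCAAT boxes. The 300-base window around the start of *H2ac20* also held 1 octamer, which lies outside the first gap as printed.

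For linker genes and for the H2A and H4 genes with the largest counts, the 250 bases before the start are given on the strand of the gene, with the same motifs in capitals. The 3 linker genes are shown because they moved differently, as described below.
H1f1, chr13:23763418-23763667, plus strand: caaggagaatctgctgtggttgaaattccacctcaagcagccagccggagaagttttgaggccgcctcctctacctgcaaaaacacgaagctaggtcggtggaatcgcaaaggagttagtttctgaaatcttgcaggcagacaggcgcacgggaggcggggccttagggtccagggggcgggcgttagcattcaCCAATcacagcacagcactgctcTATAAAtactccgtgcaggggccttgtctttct
H1f2, chr13:23738557-23738806, plus strand: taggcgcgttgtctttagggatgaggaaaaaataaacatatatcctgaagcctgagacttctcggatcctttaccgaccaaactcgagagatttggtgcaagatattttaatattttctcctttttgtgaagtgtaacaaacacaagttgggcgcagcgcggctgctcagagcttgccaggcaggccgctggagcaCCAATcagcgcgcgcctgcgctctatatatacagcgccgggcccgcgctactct
H1f6, chr13:23695561-23695810, plus strand: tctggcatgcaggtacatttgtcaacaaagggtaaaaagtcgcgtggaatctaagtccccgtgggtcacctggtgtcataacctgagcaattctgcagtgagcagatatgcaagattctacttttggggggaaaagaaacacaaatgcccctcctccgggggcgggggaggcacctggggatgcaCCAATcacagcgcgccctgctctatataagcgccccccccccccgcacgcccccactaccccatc
H2ac18, chr3:96245247-96245496, plus strand: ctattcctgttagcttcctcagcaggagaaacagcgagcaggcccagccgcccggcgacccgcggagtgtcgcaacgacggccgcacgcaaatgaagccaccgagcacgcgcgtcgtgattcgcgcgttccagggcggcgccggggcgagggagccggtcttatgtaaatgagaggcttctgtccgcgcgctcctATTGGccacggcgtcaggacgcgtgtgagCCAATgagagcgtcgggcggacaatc
H4c1, chr13:23761250-23761499, minus strand: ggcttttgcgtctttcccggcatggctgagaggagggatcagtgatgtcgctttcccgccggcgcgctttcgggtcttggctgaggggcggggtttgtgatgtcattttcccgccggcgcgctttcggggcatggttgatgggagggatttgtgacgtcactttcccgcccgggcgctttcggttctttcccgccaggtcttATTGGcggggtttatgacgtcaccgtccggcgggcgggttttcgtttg
Windows of 300 bases, from 250 before to 50 after the start, were on record for 62 of the 70 genes, and the first window was used for *H2bc6*, which has 2. CCAAT was present in 85.5% of them and in 37.9% of the windows of 27025 genes of all kinds. It was in the window of every H1, H2A, H2B and H3 gene on record and in 3 of 12 H4 genes. TATAAA was in 56.5% of the 62 windows and in 14.2% of all windows. The windows of *H2ac18* and *H4c1* each held 1 copy, past the 250 bases printed. The octamer was in 13 of the 62 windows, 7 of H2A and 6 of H2B genes, or 21% against 1.75% of all windows. It was also in the second window of *H2bc6*, which was not counted. No H1, H3 or H4 window held it. Of the H2A and H2B genes with a window, it was in none of the 5 that rose, 5 of the 8 that fell, 5 of the 9 tested and not called and 3 of the 10 not tested. A match describes only these letters in this window.

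Clustered histone genes moved in both directions in *Arid1a* cKO pachytene spermatocytes. Transcript abundance rose at 13 members and fell at 13, while 21 were tested and not called and 20 had too few counts to test. Among members with under 50% of their sequence (as 31-base words) shared with other genes, 4 rose and 9 fell, and with at least 10 counts required in every library 8 rose and 6 fell. The risen members were 5 H2A, 3 H3, 3 H4, 1 H2B and 1 H1 gene, with *H2ac18*, *H2bc22*, *H2af-ps2*, *H2ac23* and *H4c1* holding the largest counts. The fallen ones were 6 H2B, 5 H2A, 1 H3 and 1 H1 gene, with *H2bc21* and *H2aw* holding the largest counts, and no H4 gene was called lower. The 26 called members were 55.3% of the 47 tested. Of all 17643 genes tested, 74.0% were called, 36.5% higher and 37.5% lower, so a call alone sets no member apart from genes at large, and the counts are not a result about histone genes as a group. The median log2 fold change was 0.20 over the 47 members tested and -0.02 over all genes tested. All 4 values of one genotype lay above all 4 of the other at 12 members that were higher and 10 that were lower in *Arid1a* cKO, where such separation was found at 34.0% and 34.9% of all genes and at 68.9% in either direction. Of the 26 called members, 23 changed by 2-fold or more.

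**Figure D1:**
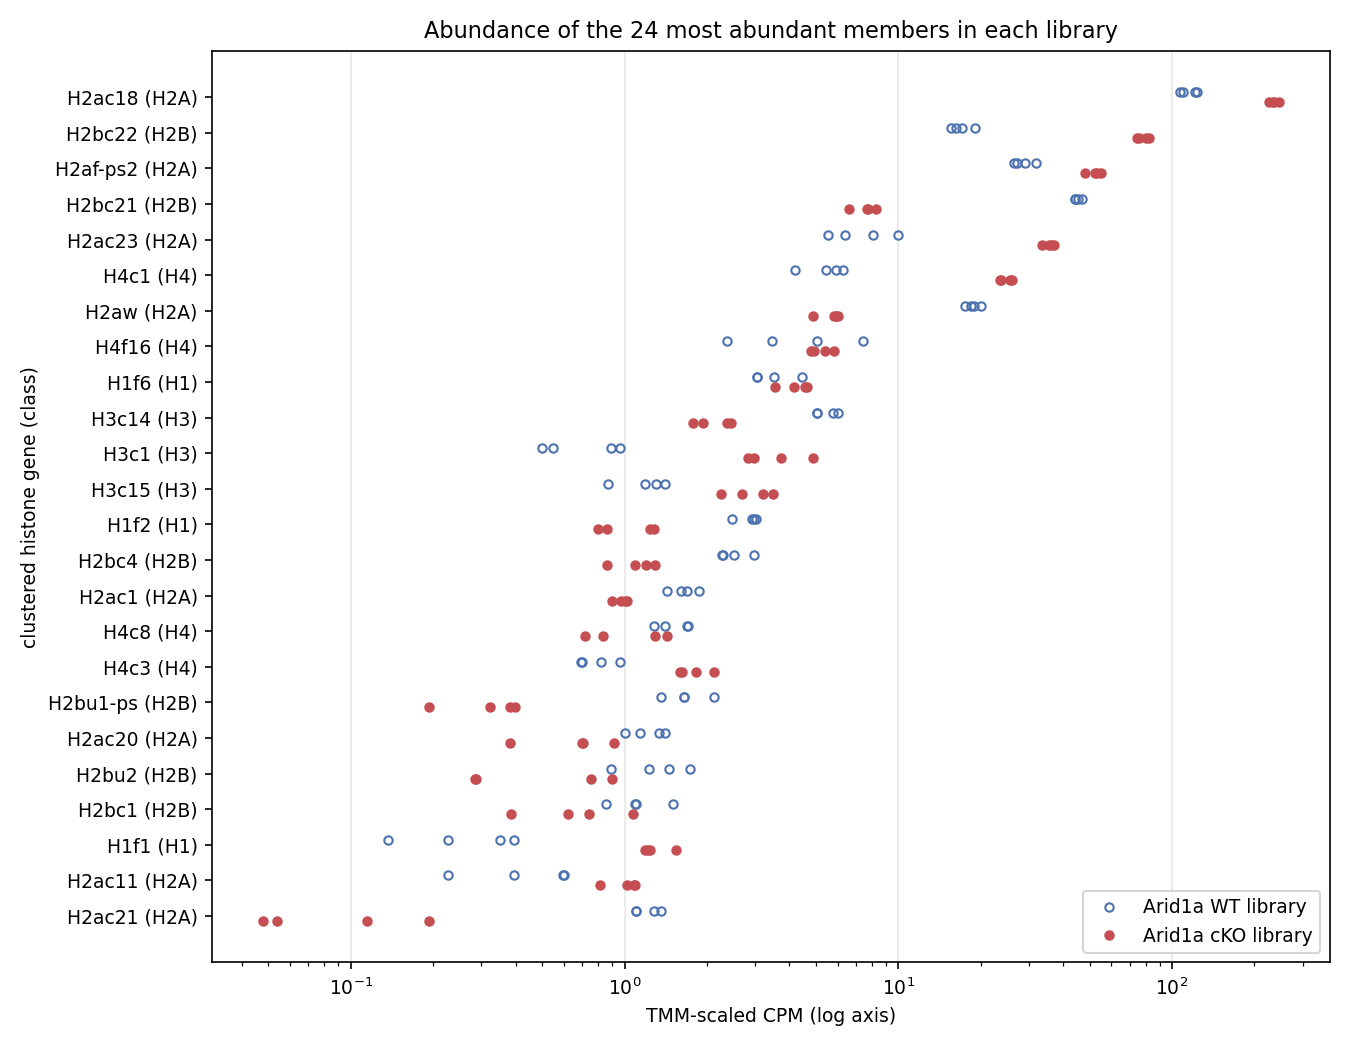
Transcript abundance in CPM (log axis) of the 24 members with the highest mean, with 1 point per library, open for *Arid1a* WT and filled for *Arid1a* cKO. The groups are separate at most of these genes, as at *H2bc22* and *H2bc21*, which moved in opposite directions, and overlap at *H4f16*, *H1f6*, *H4c8*, *H2bu2* and *H2bc1*.

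Members differed widely in level. On the TPM scale, which is per length and can be set between genes, *H2ac18* stood first in both genotypes, with a median of 412 TPM in *Arid1a* WT and 762 TPM in *Arid1a* cKO libraries. It made up 46.6% of the members' summed TPM in *Arid1a* WT and 44.9% in *Arid1a* cKO. The pseudogene-annotated copy *H2af-ps2* followed with medians of 228 and 389 TPM, then *H2bc22* with 55.4 and 226 TPM, and *H2ac23* with 33.4 and 151 TPM. These first 4 places were the same in both genotypes, and the ranges of neighbours among them did not overlap within a genotype. *H2bc21* went from place 5 to 13 and *H2aw* from 7 to 14, while *H3c1* went from 19 to 6. Only 8 members in *Arid1a* WT and 6 in *Arid1a* cKO had a median of 10 TPM or more. The members together took 0.0284% ± 0.000891 (SD, n = 4) of the counts of an *Arid1a* WT library and 0.0458% ± 0.00132 (SD, n = 4) of those of an *Arid1a* cKO library.

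Linker histones bind the DNA that enters and leaves the nucleosome. *H1f1*, *H1f2* and *H1f6* behaved differently from each other. *H1f1*, which encodes the H1.1 subtype, had 0.396, 0.137, 0.351 and 0.227 CPM in the *Arid1a* WT libraries and 1.18, 1.54, 1.24 and 1.22 CPM in the *Arid1a* cKO libraries. Every *Arid1a* cKO library was above every *Arid1a* WT library, and *H1f1* rose 4.64-fold (log2 fold change 2.21, standard error 0.31, adjusted p = 1.24e-05). *H1f2*, which encodes the widely expressed H1.2 subtype, had 3.02, 2.47, 2.96 and 2.91 CPM in *Arid1a* WT and 0.861, 0.799, 1.24 and 1.29 CPM in *Arid1a* cKO libraries, and so was lower in every *Arid1a* cKO library (log2 fold change -1.43, standard error 0.19, adjusted p = 8.73e-06). The testis-specific *H1f6* had 4.45, 3.52, 3.06 and 3.05 CPM and 3.55, 4.17, 4.55 and 4.63 CPM, groups that overlapped (log2 fold change 0.26, standard error 0.15, adjusted p = 0.131), and it was called higher without *Arid1a* WT replicate 1, at 0.39 (adjusted p = 0.0276). The other somatic subtypes were near the limit of counting. *H1f3* had 2 to 8 counts per library (log2 fold change -0.57, adjusted p = 0.245) and *H1f4* had 0 to 6 (-0.75, adjusted p = 0.296). *H1f5* had 3 counts in all and was not tested. Of the 31-base words in the *H1f6* transcript none occurred in another gene, and in that of *H1f1* 0.3% did, so their reads can be told apart from those of other members.

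H2A and H2B form the dimers that flank the central H3-H4 tetramer of the nucleosome. Among H2A genes, 5 rose and 5 fell of 11 tested. *H2ac18*, whose near-identical copy *H2ac19* lies close to it on chromosome 3, had 121, 107, 109 and 123 CPM in *Arid1a* WT and 234, 246, 225 and 236 CPM in *Arid1a* cKO libraries. The groups were far apart, and *H2ac18* rose 2.04-fold (log2 fold change 1.03, standard error 0.06, adjusted p = 4.64e-10). The transcribed pseudogene *H2af-ps2* of chromosome 13 had 28.9, 27.2, 26.4 and 31.8 CPM and 52.3, 55.2, 53.2 and 48.1 CPM (log2 fold change 0.87, standard error 0.07). Of the 31-base words, 89.7% of those of *H2ac18* and 81.9% of those of *H2af-ps2* also occur in other genes. Among these are each other, *H2ac19* and the annotated gene *Gm20634*, so the counting could have divided reads between the copies. Summed over both genes, the mean level (± SD, n = 4 each) was 143.7 ± 10.5 CPM in *Arid1a* WT and 287 ± 9.63 CPM in *Arid1a* cKO, a ratio of 2.0. That sum holds neither *H2ac19* nor *Gm20634*.

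*H2ac23* on chromosome 13 had 6.38, 5.53, 8.08 and 9.96 CPM in *Arid1a* WT and 33.5, 37.2, 36.3 and 35.6 CPM in *Arid1a* cKO libraries (log2 fold change 2.25, standard error 0.13). It stood higher in each *Arid1a* cKO library, although 93.8% of its words are shared, with *H2ac24* as the closest copy. *H2aw* of the chromosome 11 array moved the other way. Its level was 18.9, 18.4, 20.1 and 17.5 CPM in *Arid1a* WT and 6.03, 5.94, 4.88 and 5.85 CPM in *Arid1a* cKO libraries, 3.31-fold lower (log2 fold change -1.73, standard error 0.09, adjusted p = 1.53e-10). *H2aw* shares 32.1% of its words with *Trim17*, a gene that overlaps it, and reads in that stretch cannot be assigned to one of them. The clearest fall by fold among H2A genes was that of *H2ac21* on chromosome 3, from 1.29, 1.1, 1.1 and 1.36 CPM to 0.0538, 0.114, 0.0478 and 0.193 CPM (log2 fold change -3.56, standard error 0.37). *H2ac20* beside it fell less, from 1.34, 1.14, 1.0 and 1.41 CPM to 0.70, 0.913, 0.383 and 0.707 CPM (log2 fold change -0.87, standard error 0.27, adjusted p = 0.00923). *H2ac11* rose from 0.227 to 0.602 CPM in *Arid1a* WT to 0.813 to 1.09 CPM in *Arid1a* cKO, and *H2ac7* rose on counts of 6, 1, 3 and 2 against 10, 11, 20 and 14. *H2ac6* fell on counts of 9, 3, 7 and 9 against 1, 0, 1 and 1.

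Among H2B genes, 1 rose and 6 fell of 15 tested, with a median log2 fold change of -1.04. The 2 genes with the largest counts moved in opposite directions. *H2bc21* on chromosome 3 had 46.9, 45.4, 44 and 44.1 CPM in *Arid1a* WT and 6.62, 7.71, 8.28 and 7.78 CPM in *Arid1a* cKO libraries, and fell 5.93-fold (log2 fold change -2.57, standard error 0.07, adjusted p = 2.27e-13). *H2bc22* on chromosome 13 had 15.6, 17.1, 16.3 and 19 CPM and 82.1, 80.2, 74.6 and 75.9 CPM, and rose 4.6-fold (log2 fold change 2.20, standard error 0.07, adjusted p = 5.06e-13). Per length, *H2bc22* was the more abundant in both genotypes, with 47.7, 56.1, 54.7 and 57.4 TPM against 26.5, 27.2, 26.8 and 25.2 TPM of *H2bc21* in the *Arid1a* WT libraries, and 231, 235, 218 and 220.3 TPM against 3.46, 4.11, 4.43 and 4.14 TPM in the *Arid1a* cKO libraries. Other genes hold 2.8% of the words of *H2bc21* and 50.6% of those of *H2bc22*, so the fall of *H2bc21* rests on reads that are nearly its own. The other 17 H2B genes summed to 8.75 ± 0.584 CPM in *Arid1a* WT and 4.3 ± 0.531 CPM in *Arid1a* cKO (mean ± SD, n = 4 each).

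The remaining falls among H2B genes were at low levels. *H2bc4* had 2.97, 2.29, 2.51 and 2.27 CPM in *Arid1a* WT and 0.861, 1.2, 1.29 and 1.09 CPM in *Arid1a* cKO libraries (log2 fold change -1.16, standard error 0.19). On chromosome 11, the pseudogene-annotated *H2bu1-ps* went from 2.13, 1.65, 1.66 and 1.36 CPM to 0.323, 0.40, 0.383 and 0.193 CPM (-2.34, standard error 0.27), with no overlap. *H2bu2* in the same array went from 0.891, 1.74, 1.45 and 1.23 CPM to 0.753, 0.285, 0.287 and 0.90 CPM (-1.28, standard error 0.36, adjusted p = 0.00469), with 1 *Arid1a* cKO library just above the lowest *Arid1a* WT library. *H4bc24*, which despite its symbol is an H2B gene, was called lower on counts of 4, 0, 14 and 9 against 1, 2, 0 and 0 (adjusted p = 0.0256), and the call was lost without *Arid1a* WT replicate 3 (log2 fold change -2.13, adjusted p = 0.0791), *Arid1a* cKO replicate 3 (-2.36, adjusted p = 0.0722) or *Arid1a* cKO replicate 4 (-2.48, adjusted p = 0.063), and with limma on TPM at either pseudocount. *H4bc24* shares 89.5% of its words with *H2bc23*, so the counting could have divided reads between these copies. *H2bc23* had counts of 9, 19, 0 and 0 against 2, 0, 3 and 7. *H2bc12* was called lower on counts of 2, 6, 0 and 3 against 0 in all *Arid1a* cKO libraries, which makes it at least 3.08-fold lower when *Arid1a* cKO is set to a floor of 3 counts over the group, and this call was lost with DESeq2. *H2bc11* was not called (log2 fold change 1.11, adjusted p = 0.142) but was without *Arid1a* cKO replicate 4 (1.44, adjusted p = 0.041), and *H2bc13*, *H2bc18* and *H2bc23*, each with 10 to 40 counts in all, changed sign when single libraries were left out.

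The testis-specific H2A and H2B genes form a head-to-head pair on chromosome 13, apart from the main array. *H2ac1*, which encodes TH2A, had 1.43, 1.69, 1.61 and 1.87 CPM in *Arid1a* WT and 1.02, 0.971, 1.0 and 0.90 CPM in *Arid1a* cKO libraries. It was lower in each *Arid1a* cKO library (log2 fold change -0.75, standard error 0.19, adjusted p = 0.00221). *H2bc1*, which encodes TH2B, had 1.09, 1.1, 0.853 and 1.5 CPM and 1.08, 0.742, 0.622 and 0.386 CPM, with overlap (log2 fold change -0.67, standard error 0.30, adjusted p = 0.0553). *H2bc1* passed the threshold with library sizes not scaled by TMM, with limma on TPM at either pseudocount, and without *Arid1a* WT replicate 3 or *Arid1a* cKO replicate 1, at log2 fold changes of -0.71 to -0.94. Of the 3 testis-specific members, then, TH2A transcripts fell and those of TH2B and H1t were not called.

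H3 and H4 form the tetramer at the centre of the nucleosome, and the clustered H3 genes encode the replication-coupled forms that H3.3 replaces outside S phase. Among H3 genes, 3 rose and 1 fell of 8 tested. *H3c1* had 0.891, 0.96, 0.502 and 0.546 CPM in *Arid1a* WT and 4.9, 2.97, 2.82 and 3.73 CPM in *Arid1a* cKO libraries, a rise of 4.92-fold (log2 fold change 2.30, standard error 0.25, adjusted p = 1.13e-06). On chromosome 3, *H3c14* and *H3c15* are near copies that moved in opposite directions. *H3c14* fell from 6.04, 5.76, 5.07 and 5.05 CPM to 1.78, 1.94, 2.44 and 2.38 CPM (log2 fold change -1.36, standard error 0.14), and *H3c15* rose from 1.19, 0.869, 1.3 and 1.41 CPM to 3.5, 2.68, 2.25 and 3.21 CPM (log2 fold change 1.28, standard error 0.20). The whole model of *H3c14* also occurs within *Gm20634*, another annotated gene, and 64.2% of the words of *H3c15* occur in *H3c14*, so each value is uncertain. Their sum was 6.67 ± 0.384 CPM in *Arid1a* WT and 5.04 ± 0.467 CPM in *Arid1a* cKO (mean ± SD, n = 4 each). *H3c10* was called higher on counts of 3, 0, 0 and 7 against 13, 0, 15 and 22 (adjusted p = 0.0203). Its groups overlap, it shares 94.2% of its words with other genes, and its call was lost without *Arid1a* WT replicate 2 (log2 fold change 2.08, adjusted p = 0.0572) or *Arid1a* cKO replicate 4 (1.97, adjusted p = 0.0844), and with DESeq2 and limma. *H3c11* had counts of 0, 0, 8 and 3 against 0, 16, 0 and 0 and was not called, with all counts of the *Arid1a* cKO group in 1 library. In that library *H3c10* had 0 counts. *H3c11* shares 85.3% of its words with *H3c10*, so the counting could have divided reads between these copies.

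Among H4 genes, 3 rose and none fell of 8 tested. *H4c1* led, with 6.28, 4.21, 5.92 and 5.46 CPM in *Arid1a* WT and 23.8, 25.5, 26.1 and 23.5 CPM in *Arid1a* cKO libraries, a rise of 4.54-fold (log2 fold change 2.18, standard error 0.10, adjusted p = 6.76e-11). *H4c3* rose from 0.693, 0.96, 0.702 and 0.819 CPM to 1.83, 1.6, 1.63 and 2.12 CPM (log2 fold change 1.16, standard error 0.20). *H4c11* was called higher on 18 counts in all, 0, 2, 0 and 0 against 2, 7, 5 and 2. *H4f16*, the solitary gene on chromosome 6, varied more among *Arid1a* WT libraries than between genotypes, at 3.46, 5.03, 7.42 and 2.37 CPM against 5.81, 4.8, 4.93 and 5.4 CPM (log2 fold change 0.20, adjusted p = 0.49), and it was called higher, at 0.53 (adjusted p = 0.0199), only when *Arid1a* WT replicate 3 was left out. *H4c8* had 1.29, 1.69, 1.71 and 1.41 CPM and 1.29, 1.43, 0.718 and 0.835 CPM (log2 fold change -0.51, adjusted p = 0.0673) and was called lower without TMM, with limma and without *Arid1a* cKO replicate 2, at -0.57 to -0.68. *H4c9* was not called (log2 fold change 0.25, adjusted p = 0.485). Without *H4f16*, the 12 other H4 genes summed to 8.7 ± 0.552 CPM in *Arid1a* WT and 29.1 ± 1.03 CPM in *Arid1a* cKO (mean ± SD, n = 4 each).

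**Figure D2:**
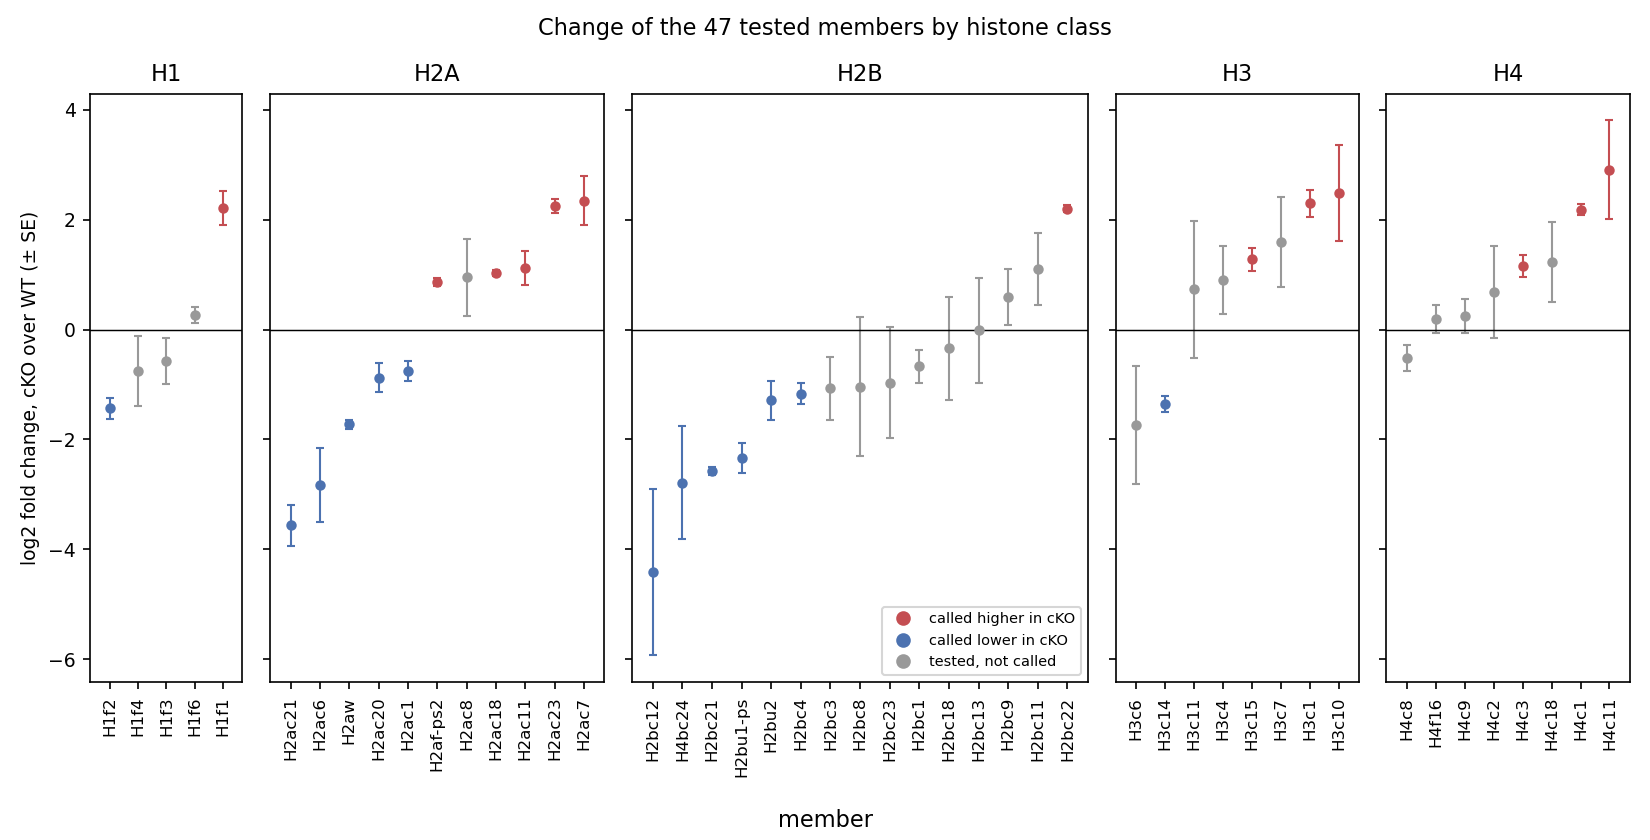
Log2 fold change (*Arid1a* cKO over *Arid1a* WT, with standard error from edgeR) of the 47 tested members, grouped by histone class and coloured by call. H2A genes lie on both sides of 0 with 5 called on each, H2B genes lie mostly below 0 with *H2bc22* as the exception that was called higher, and no H4 gene was called lower.

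Summed by class, the ratio of the share of library counts between genotypes moved in every class when its most abundant member was left out. H2A genes took 0.0184, 0.0169, 0.0184 and 0.0188% of the counts in the *Arid1a* WT libraries and 0.0313, 0.0337, 0.0312 and 0.0324% in the *Arid1a* cKO libraries. H2B genes took 0.00734 ± 0.000201% (SD, n = 4) and 0.00871 ± 0.000264% (SD, n = 4), and the groups did not overlap. Without *H2bc22*, however, the log2 ratio of the H2B share turned from 0.25 to -2.28, since *H2bc21* then set the class. H4 genes took 0.00138 ± 0.000301% and 0.00332 ± 5.12e-05% (SD, n = 4 each), a log2 ratio of 1.26 that was 0.18 without *H4c1*. H3 genes took 0.000831 ± 5.55e-05% and 0.000985 ± 0.000131% (SD, n = 4 each), with overlap between the groups. Their log2 ratio of 0.25 was 1.56 without *H3c14*. H1 genes took 0.000746 ± 8.82e-05% and 0.000667 ± 6.23e-05% (SD, n = 4 each), also with overlap. Their log2 ratio of -0.16 was -0.56 without *H1f6*. On the TPM scale, which weighs short transcripts more, the sums were 711 ± 16.7 and 1328 ± 56.5 TPM for H2A, 110.0 ± 5.11 and 244 ± 10.5 TPM for H2B, 11.8 ± 0.643 and 24.9 ± 4.03 TPM for H3 and 35.7 ± 3.91 and 103 ± 5.19 TPM for H4 (*Arid1a* WT and *Arid1a* cKO, SD, n = 4 each). The H1 sum, 10.7 ± 1.46 and 11.5 ± 1.18 TPM, turned from lower to higher with the scale while its groups overlapped on both. The class sums are descriptions without a test. The TPM of the listed genes summed to 780735 to 811443 in *Arid1a* WT and 880901 to 886412 in *Arid1a* cKO libraries, so part of any TPM ratio is shared by all genes.

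**Figure D3:**
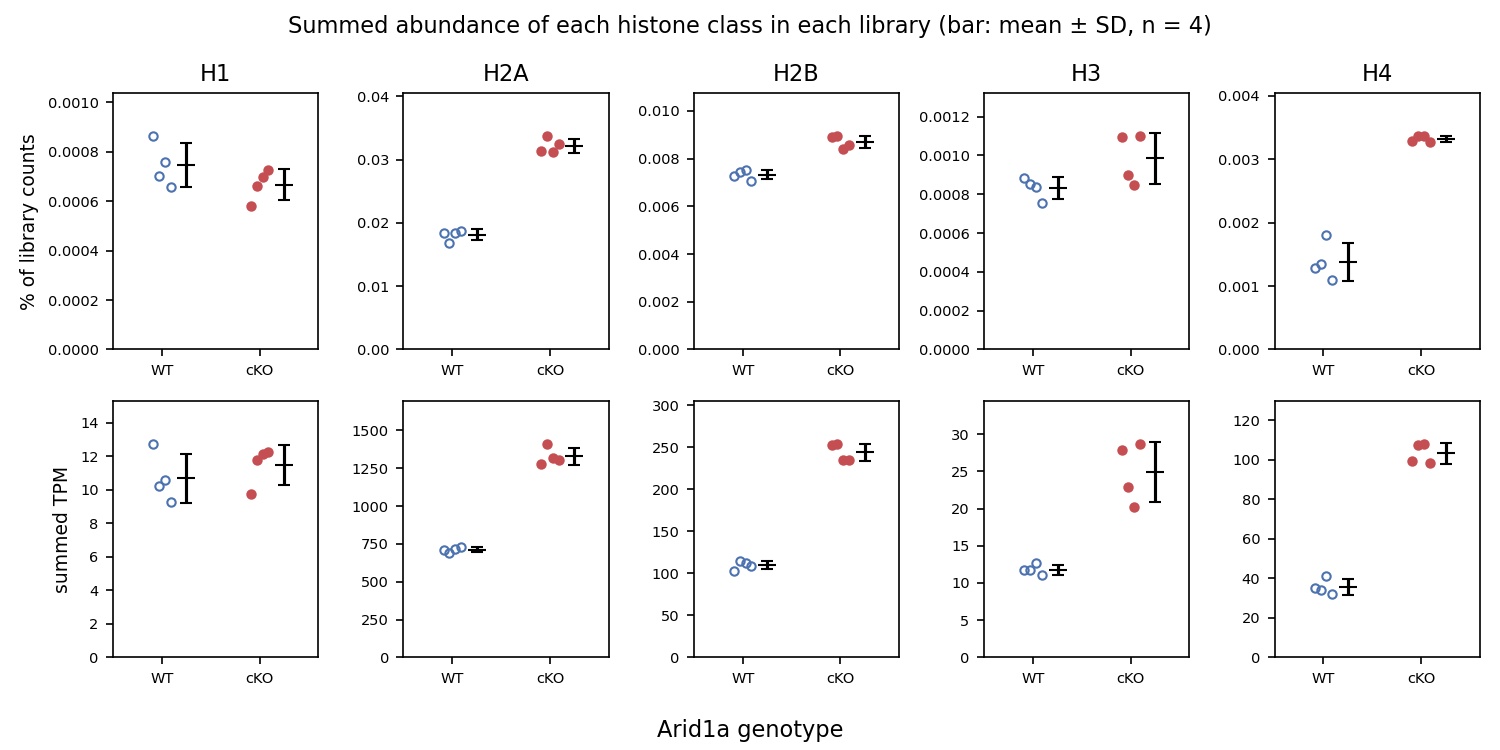
Summed abundance of the members of each class in each library, as percent of library counts (upper row) and as summed TPM (lower row), with the mean and SD of 4 libraries beside the points. H2A, H2B and H4 are separate between genotypes on both scales, while H1 overlaps on both and H3 overlaps only on the count scale.

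Along the chromosomes, neighbours could move together or apart. On chromosome 11 all 3 members fell (*H2bu2*, *H2bu1-ps* and *H2aw*). On chromosome 3, 4 fell, 2 rose, 1 was not called and 2 were not tested, and on chromosome 13, 11 rose, 6 fell, 19 were not called and 18 were not tested. At one end of the main chromosome 13 array, the neighbouring *H4c1*, *H3c1* and *H1f1* rose at similar log2 fold changes of 2.18, 2.30 and 2.21. Of the 15 head-to-head pairs, 8 had both genes tested. Both genes fell in 3 pairs, *H2ac20* with *H2bc21* (-0.87 and -2.57), *H2bu1-ps* with *H2aw* (-2.34 and -1.73) and *H2ac6* with *H2bc4* (-2.83 and -1.16), whose shared gaps are printed above. No pair was called in opposite directions and in none did both genes rise. A single gene was called in 7 pairs. In 2 of these the risen gene had many counts and its partner few, as *H2bc22* had 7102 counts over the 8 libraries and *H2ac22* had 9 across the gap of 234 bases, and *H2ac23* had 3217 and *H2bc23* had 40 across 167 bases. Genes of a pair share their surroundings and, for near copies, sometimes reads, and are not independent.

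**Figure D4:**
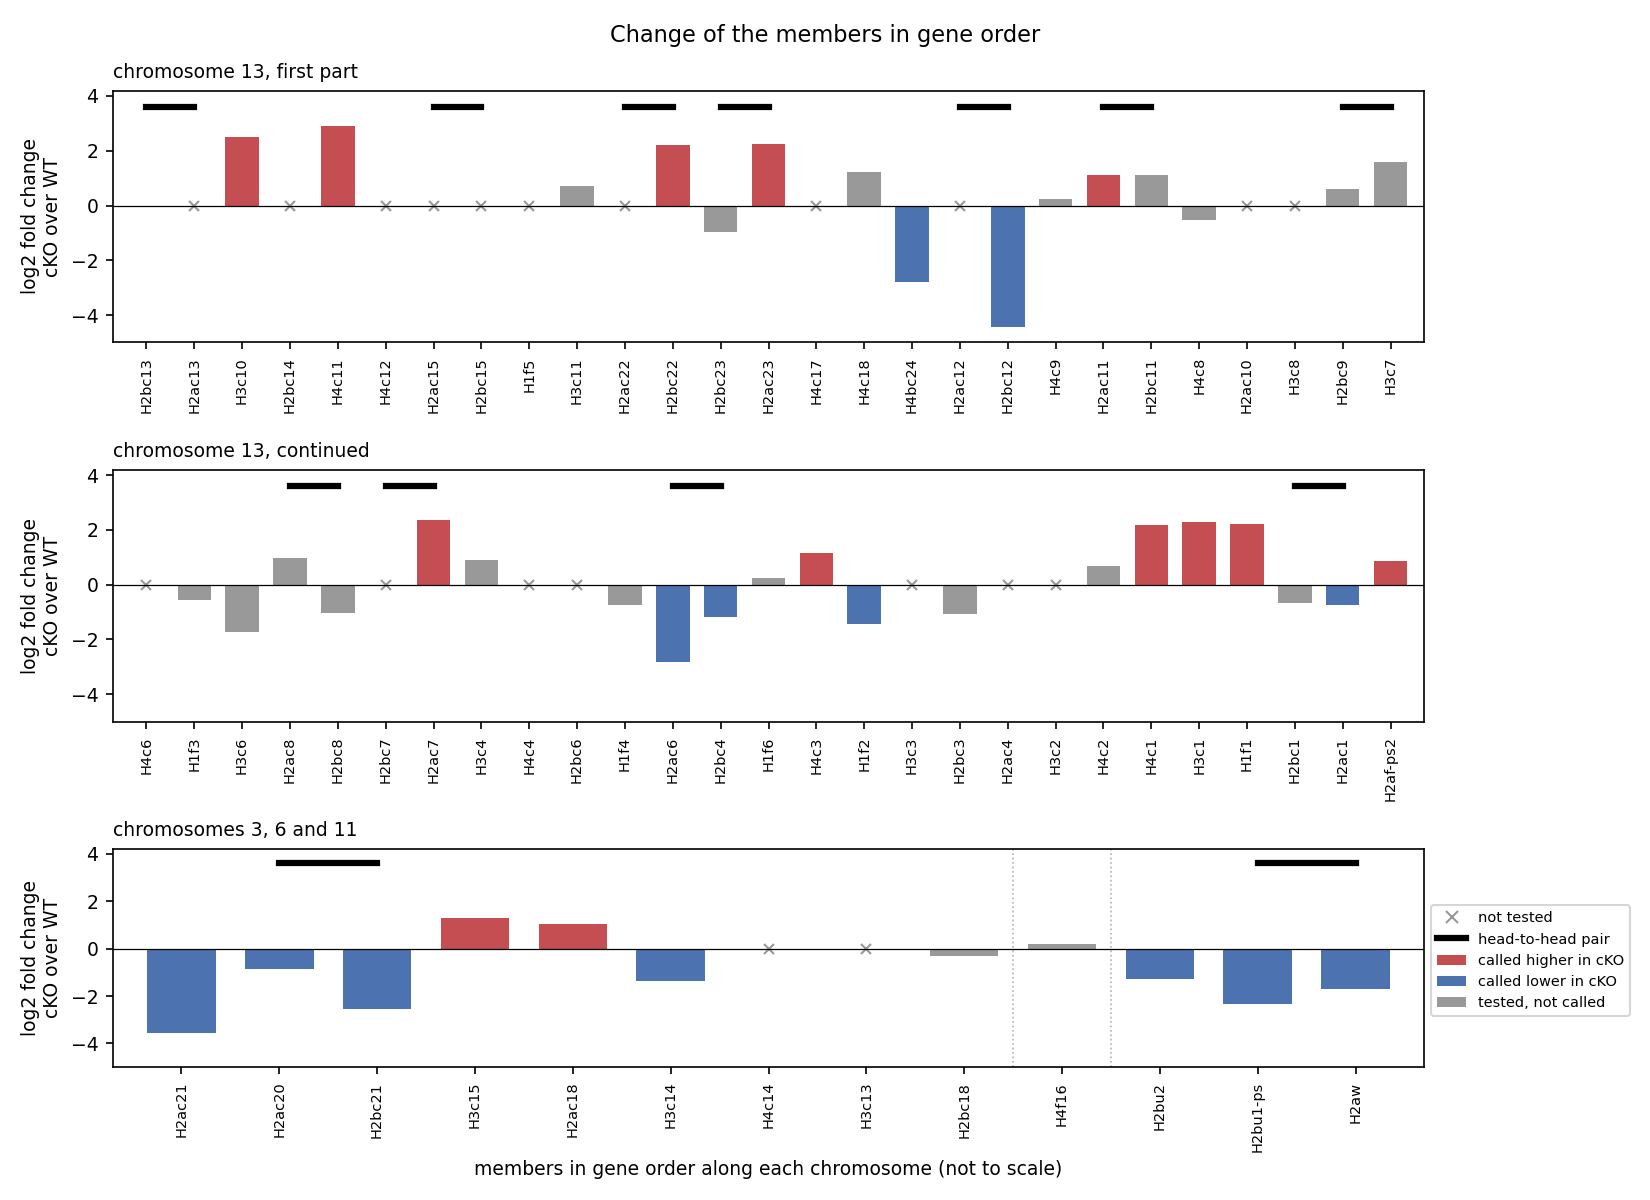
Log2 fold change (*Arid1a* cKO over *Arid1a* WT) of the members in gene order, with chromosome 13 in 2 panels and chromosomes 3, 6 and 11 in the third, crosses for members not tested and black bars over head-to-head pairs. Risen and fallen genes are interspersed along chromosome 13, partly in runs of one direction, all 3 genes of chromosome 11 fell, and *H4c1*, *H3c1* and *H1f1* rose side by side.

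Transcript models of the members varied in length. The longest model had a median of 1156 bases (390 to 2620) among the 13 that fell, 572 bases (339 to 1020) among the 13 that rose and 704 bases (381 to 7425) among the 21 not called. Over all genes tested, the corresponding medians were 3399, 3079 and 3061 bases. Of the 7 fallen members with a stem-loop, 5 had models that ran more than 150 bases past it, with a median of 840 bases, and of the 10 risen members with one, 3 did so, with a median of 40 bases. Of the 16 with one that were tested and not called, 11 did so, with a median of 257.5 bases, so long models were not particular to members that fell. *H2bc21* (2620 bases), *H2ac6* (2482), *H2aw* (2146), *H3c14* (1825) and *H1f2* (1560) were long and fell, whereas *H2ac18* (586), *H2bc22* (621), *H2ac23* (480) and *H4c1* (539) were short and rose. Of the 13 fallen members, 6 were short as well, *H2ac1* (390), *H2ac21* (444), *H2bu1-ps* (465), *H2bc12* (476), *H2ac20* (520) and *H2bu2* (614). A spliced model was on record for 1 risen member, 2 fallen members and 1 that was tested and not called. The length was noted after the values were seen and is given without a test. With offsets for the transcript length recovered from counts and TPM, all 26 calls remained with their direction. These offsets are relative to each gene's own mean length over the libraries. They cannot bear on differences in length between members.

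**Figure D5:**
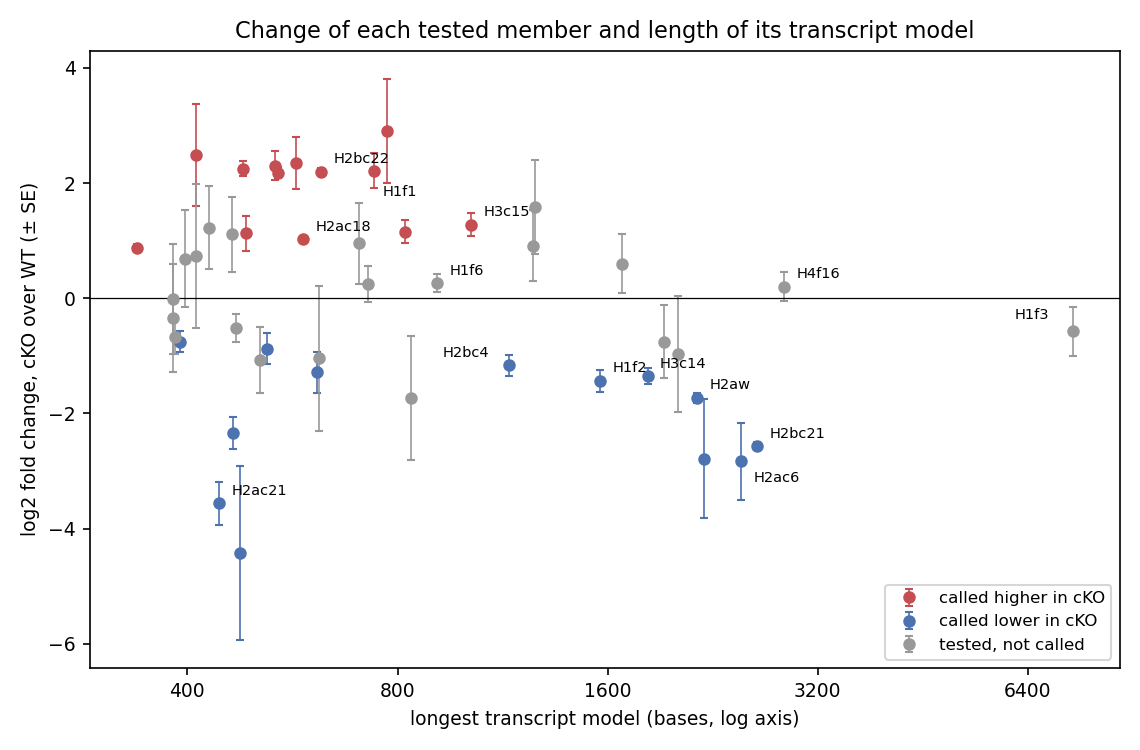
Log2 fold change (*Arid1a* cKO over *Arid1a* WT, with standard error) of the 47 tested members against the length of the longest transcript model on a log axis. No member with a model longer than 1020 bases was called higher, and the called members above that length, from *H2bc4* to *H2bc21*, were all lower.

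The factors that make histone messengers were examined beside the members. *Slbp*, whose protein binds the stem-loop, had 186, 179.8, 177 and 188 CPM in *Arid1a* WT and 109, 108, 109 and 109 CPM in *Arid1a* cKO libraries, lower in each of the latter (log2 fold change -0.75, standard error 0.04, adjusted p = 7.61e-10). *Lsm10* and *Lsm11*, the U7 snRNP proteins of histone 3′ end cleavage, fell, at log2 fold changes of -0.56 (standard error 0.08) and -0.40 (standard error 0.13). *Npat*, the coactivator of histone transcription at the start of S phase, had 52.4, 49.6, 50.4 and 48.6 CPM and 56.8, 51.4, 56.8 and 53.7 CPM, which was called higher at 0.12 (adjusted p = 0.0429), lost the call under several other settings and turned to -0.012 with limma on log2(TPM + 1). Of the 21 genes of the list of histone messenger transcription, processing and decay, 12 fell, 6 rose and 3 did not pass. *Cstf2*, a cleavage factor of polyadenylated messengers, rose from 21.7 ± 1.08 to 100.2 ± 2.2 CPM (SD, n = 4 each), and *Upf1*, a helicase that takes part in histone messenger decay, fell from 248 ± 6.31 to 58 ± 4.16 CPM (SD, n = 4 each).

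Genes of S phase and of DNA replication showed no common direction, with 10 higher, 9 lower and 5 not called of 24 and a median log2 fold change of 0.03. *Fen1*, the flap nuclease of lagging-strand synthesis, rose by 1.59 log2 units, and *Cdk2*, a kinase of S phase that meiotic cells also use, fell, at -2.53. Of 12 chaperones that carry H3-H4 or H2A-H2B, 9 fell and 3 rose, with *Nap1l4* and *Nap1l1*, H2A-H2B chaperones, at log2 fold changes of -1.43 and -1.16. Histone variant genes outside the clusters went mostly up, with 9 higher and 4 lower of 14 tested (median 0.59). The spermatid linker histone gene *Hils1* rose from 82 ± 4.76 to 386 ± 15.7 CPM (SD, n = 4 each), and the testis H2B variant gene *H2bl1* from 17.2 ± 0.649 to 85.7 ± 6.76 CPM (SD, n = 4 each). *Hils1* is also one of the spermatid markers given above, all of which rose. The lists were read only by their counts, beside the 36.5% of all genes called higher and the 37.5% called lower. Like the marker lists, they were not split into autosomal and sex-linked genes.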

How the data were processed

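RNA-seq libraries of 4 *Arid1a* WT and 4 *Arid1a* cKO samples of pachytene spermatocytes were grouped by the genotype in their labels. The authors quantified reads with Salmon on mm10 and deposited estimated counts per Entrez gene, without scaling for library size or length, and TPM, which Salmon scales for both. Their table of differentially expressed genes, made with DESeq2, holds fold changes and p-values and was not used. All columns of per-sample values matched a sample.

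The design assumed whole counts, so the estimates were rounded first. The test was edgeR 4.0.16 in R 4.3.3 with TMM, glmQLFit and glmQLFTest, on the 17643 genes that reached a sum of 10 counts in the 8 libraries, with Benjamini-Hochberg adjustment over all of them and a call at 0.05 or below. The method was tested on simulated data. Entrez genes were named from RefSeq (GRCm38.p6), which matched 21036 of 21058. Sequence shared between genes was the share of 31-base words of GENCODE M21 transcripts found in other genes. Library totals are in the report, and the floor of 3 counts covers counting error only. Replicate libraries differed by more than sampling noise.

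The genes named were the H1 genes, *H2ac1*, *H2bc1*, the members with the highest mean CPM up to 30, members whose call or sign depended on 1 library, 4 processing factors, *Arid1a* and the 2 called genes of each list with the largest change at an average log2 CPM of at least 1. *H2ac6*, *H4c11*, *H2bc12*, *H2ac22*, *H2bc3* and *H3c7* were named after their values were seen. Members and lists were chosen with earlier results of these data known. Alternatives were DESeq2 1.42.0, other scalings, filters and thresholds, the replicate number as a block, length offsets, limma 3.58.1 on log2(TPM + 1) and log2(TPM + 0.1), members with little shared sequence, and each library left out. Figures were drawn in Python with matplotlib.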

Additional observations from a re-analysis of the deposited data

Results flagged for a closer look

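In 5 of 123 groups of 4 libraries, 1 library stood apart from the other 3 beyond Dixon's limit for the gap to the nearest library as a share of the group's range, which chance passes in about 1 of 20 groups. *H1f1* was high in *Arid1a* cKO replicate 2 (1.54 CPM against 1.18 to 1.24 CPM, a gap of 0.832 of the range). *H2aw* was low in *Arid1a* cKO replicate 3 (4.88 against 5.85 to 6.03 CPM, 0.843). *H3c11* was counted, within the *Arid1a* cKO group, in replicate 2 alone (0.914 CPM, 1.0), and its sign turns without that library. Its near copy *H3c10* had 0 counts in the same library. *Spag6*, a pachytene marker, was high in *Arid1a* WT replicate 4 (55.5 against 46 to 47 CPM, 0.895). *Slbp* was low in *Arid1a* cKO replicate 2 (107.8 against 108.5 to 108.6 CPM, 0.95), a gap that is small beside the difference between genotypes.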

How the results depend on the processing

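All 26 called members kept their direction under each alternative that tested them. With at least 10 counts in every library, which tests 17 members, 8 were called higher and 6 lower, and among members with under 50% of their 31-base words shared, 4 were higher and 9 lower. Higher members are thus 30.8% of the called ones under that limit, against 13 of 26. The limit sets aside more than near copies, such as *H2bc22*, of whose words 38.5% occur in its closest partner. With single libraries left out, the counts ranged from 12 to 15 higher and from 12 to 15 lower, and the log2 fold change of *Arid1a* from -0.55 to -0.44. DESeq2 lost *H2bc12* and *H3c10*, and limma lost *H3c10* and *H4bc24*. *H3c7* was called without *Arid1a* WT replicate 1 and with limma on log2(TPM + 0.1), and *H2bc3* without *Arid1a* cKO replicate 1 and with limma at either pseudocount. Library sizes without TMM shifted the median log2 fold change of all genes to -0.12. Same-numbered libraries are paired by number only (correlations of their deviations from the group means of 0.162, 0.0125, 0.0852 and -0.137). With the replicate block, 14 members were called higher and 13 lower, *H2bc11* being added at 1.09, and *Arid1a* was at -0.50.

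By class, the log2 ratio of the summed share turned for H1 from -0.16 to 0.10 with summed TPM and was -0.56 without *H1f6*. It was 0.60 without *H2ac18* for H2A. For H2B it was 1.15 with TPM and turned to -2.28 without *H2bc22*, for H3 it was 1.08 with TPM and 1.56 without *H3c14*, and for H4 0.18 without *H4c1*. Signs turned at members that were not called. With single libraries left out, *H4f16* ranged from -0.0041 (without *Arid1a* WT replicate 4) to 0.53, *H3c11* from -4.45 (without *Arid1a* cKO replicate 2) to 2.1, *H2bc13* from -0.81 to 0.57 (positive without *Arid1a* WT replicate 3 or 4 or *Arid1a* cKO replicate 2, 3 or 4), *H2bc18*, at -0.33 on all libraries, from -0.0136 to 0.11 (without *Arid1a* cKO replicate 4 and 3, the only 2 of 8 such fits in which it had enough counts to test) and *H2bc23* from -1.85 to 0.19 (without *Arid1a* WT replicate 2). *H3c11* was at -0.51 with limma on log2(TPM + 0.1). *H2bc13* was at 0.017 with autosomal TMM, 0.011 with DESeq2 size factors and 0.39 with limma on log2(TPM + 0.1). *Npat* was at -0.012 and -0.013 with limma at the larger and smaller pseudocount. The cause was not tested. Depth limits the members under 10 counts, and capture of poly(A) tails limits what any count says of histone RNA.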
